A study of Homo sapiens with 6 samples.

Results

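The genes described here are 10 genes that RAS-ERK signalling induces and that report on or restrain that signalling in turn, namely DUSP4, DUSP5, DUSP6, SPRY2, SPRY4, SPRED1, SPRED2, PHLDA1, ETV4 and ETV5. They were listed by gene symbol under a rule that uses no measured value, but earlier results of these data were known when they were chosen. They are 10 of the 56638 gene symbols in the count files. All 10 passed the filter on low counts and are among the 23074 genes tested. RNA was sequenced from 6 samples of a colorectal cancer cell line of human origin, 3 of them labelled control siRNA and 3 labelled with an siRNA to the long noncoding RNA AF339830, which the study renamed GLCC1. The study asked how gene expression differs when GLCC1 is knocked down, and each group received a duplex of small interfering RNA, so that transfection itself is shared by both groups. The control siRNA is described only as non-specific, and the sources do not say which GLCC1 duplex was sequenced. The titles number the GLCC1 siRNA samples 1 to 3 and the genotype label gives the number 1 in all of them, so the numbers were taken as replicates, although the titles alone could also be read as naming duplexes.

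Both the cell line and the direction of the comparison carry a doubt. The labels name SW480 cells, whereas the study's methods name DLD-1 cells for this experiment. Titles, source names and genotypes place each library in the group used here, but the names of the libraries say the reverse. If the library names were right, every direction given below would turn, with the same sizes. The level of GLCC1 itself was not analysed here, so the labels were not checked against the targeted RNA.

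In the RAS-ERK cascade, an active RAS protein recruits a RAF kinase, RAF phosphorylates MEK, and MEK phosphorylates ERK, which enters the nucleus and switches on transcription. Among the genes induced are the brakes of the pathway itself. Dual-specificity phosphatases (DUSPs) remove the activating phosphates from MAP kinases. Sprouty (SPRY) and Sprouty-related (SPRED) proteins act upstream, at the level of receptors, RAS and RAF. ETV4 and ETV5 are ETS-family transcription factors of the PEA3 group, and PHLDA1 is an adaptor with a pleckstrin homology-like domain. Because their messenger RNAs follow ERK activity within hours, such genes are used as a transcriptional readout of the pathway in colorectal and other cancers.

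The 10 genes did not move in one direction (the plot of levels by library). The 3 phosphatases DUSP4, DUSP5 and DUSP6 fell, as did SPRED1, whereas SPRY2, SPRY4 and ETV4 rose, and SPRED2, PHLDA1 and ETV5 did not pass the test. In bulk RNA, fewer cells expressing a gene and less of its RNA per cell cannot be told apart. In all, 3 of the 10 rose and 4 fell with an adjusted p under 0.05 from the quasi-likelihood test of edgeR, a test of counts fitted across all genes. Among all genes tested, 14.9% rose and 16.7% fell by the same rule. Among the 4094 genes with a mean level in the range of these 10, from 60.0 to 553 CPM (gene counts scaled to 1e6 per library), 20.0% rose and 31.6% fell. The values of 7 of the 10 genes did not overlap between the groups, which held for 65.8% of those 4094 genes. The median log2 fold change of the 10 genes was -0.06, against 0.03 for all genes tested and -0.07 for those 4094 genes. None of the 10 (0 genes) reached a 2-fold change with an adjusted p under 0.05, a size reached by 7.78% of all genes tested, although DUSP4 and SPRY2 came close in opposite directions. Each fold change sets GLCC1 siRNA over control siRNA, and levels are CPM after TMM scaling, given as means ± SD over 3 libraries. Levels of the cell type markers are the exception, being CPM of library totals without TMM scaling.

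**Figure D1:**
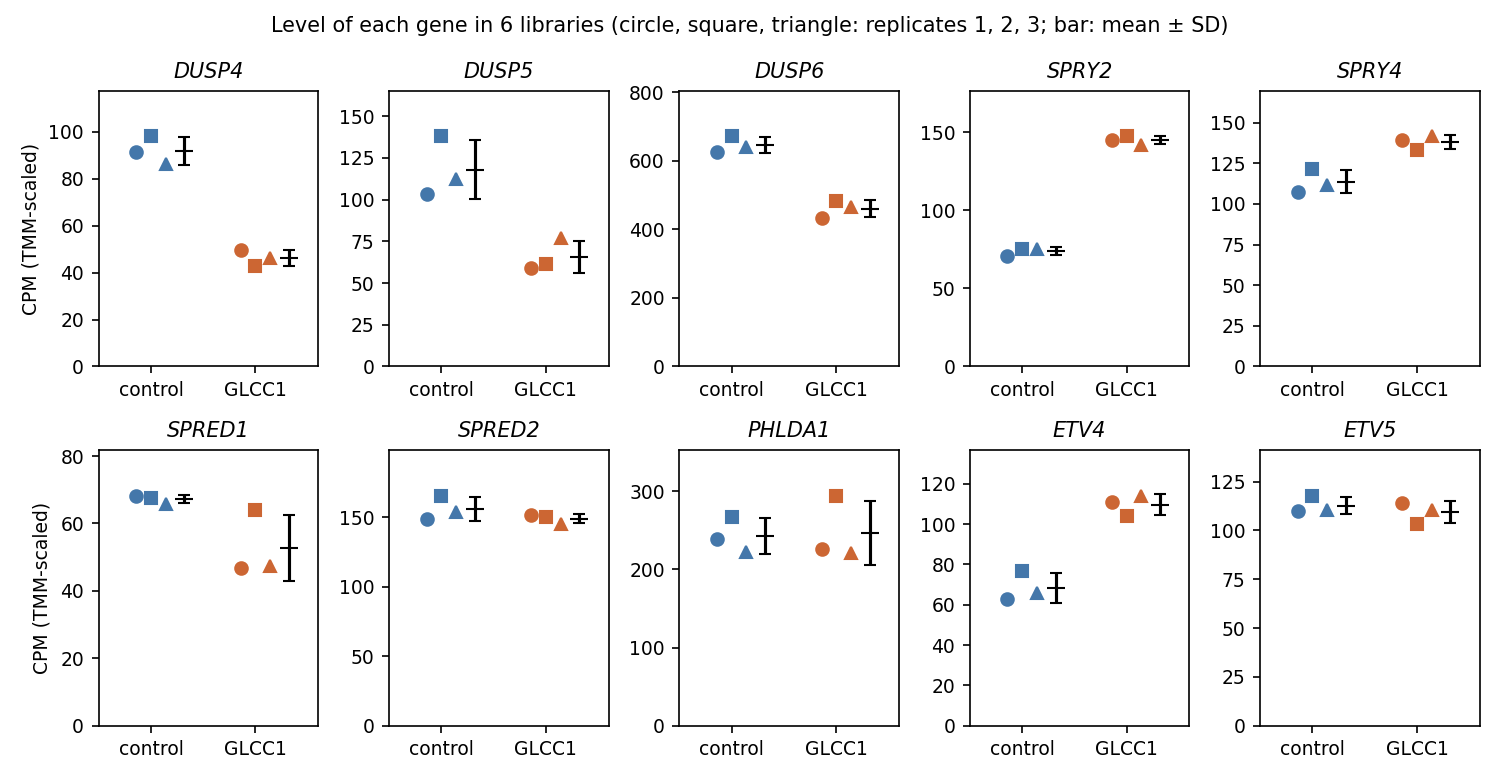
Level of each of the 10 genes in CPM after TMM scaling (vertical axes, each starting at 0) in 3 control siRNA libraries (blue) and 3 GLCC1 siRNA libraries (orange), with the mean ± SD of each group in black. DUSP4, DUSP5 and DUSP6 were lower in every GLCC1 siRNA library, SPRY2, SPRY4 and ETV4 were higher in every one, and SPRED2, PHLDA1 and ETV5 overlapped.

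The control libraries held 15002165 to 19042516 gene counts and the GLCC1 siRNA libraries 11948790 to 18390975. The lowest count of any of the 10 genes in any library was 540, for DUSP4. Replicate 2 of the GLCC1 siRNA group stood apart, being the smallest library and the one with the largest share of reads on no gene (14.2%, where the others had between 11.2% and 12.7%). Its chi-square per degree of freedom against the other GLCC1 siRNA libraries was 18.1 and 19.0, where those 2 differed by 3.28 from each other. The labels do not say that the 3 libraries of a group came from separate cultures on separate days, so p-values measure the spread between these libraries only. Markers of colorectal epithelium were present, 8 of 9 at 1 CPM or more, where marker levels are CPM of library totals without TMM scaling. Their summed level was 5488 to 5872 CPM with control siRNA and 2525 to 2864 CPM with GLCC1 siRNA, with 5 of the 9 falling and 1 rising. The keratins KRT8, KRT18 and KRT19 summed to 4531 to 4901 CPM with control siRNA and 1489 to 1885 CPM with GLCC1 siRNA. The other 6 markers summed to 944 to 972 CPM and 894 to 1036 CPM, which overlap on this scale. Among these other markers, CDH17 and VIL1 were higher in every GLCC1 siRNA library than in any control library. CDH1 and CDX2 were lower in every one, and EPCAM and KRT20 overlapped. CDH1 had 229, 255 and 222 CPM in the control libraries and 168, 183 and 181 CPM in the GLCC1 siRNA libraries. The fall of epithelial markers was thus not confined to the keratins. TMM factors were 0.950 to 0.972 with control siRNA and 1.03 to 1.05 with GLCC1 siRNA. The sums were not computed after TMM scaling, so an overlap on that scale is not shown. The drop of the keratins moves with the comparison, and its part in the results was not tested. Of the markers of other cell types, PTPRC, PECAM1, CDH5, KDR, COL1A2 and LUM had no count in any library. The summed fibroblast markers reached at most 19.0 CPM, the immune markers 5.65 CPM and the endothelial markers 1.45 CPM.

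The start regions of a few of these genes are shown because genes named for a shared signal moved apart. RefSeq windows of 250 bases before to 50 bases after the start (GRCh38.p14) were used for 6 of the 10 genes, DUSP6, SPRY2, SPRY4, SPRED1, SPRED2 and PHLDA1. DUSP6, which fell, and SPRY2 and SPRY4, which rose, all lie on the minus strand, at chr12:89352452-89352751, chr13:80341077-80341376 and chr5:142324198-142324497, and the SPRY2 window is the first of its 3 listed starts. Capitals mark the GC box GGGCGG on either strand.
DUSP6: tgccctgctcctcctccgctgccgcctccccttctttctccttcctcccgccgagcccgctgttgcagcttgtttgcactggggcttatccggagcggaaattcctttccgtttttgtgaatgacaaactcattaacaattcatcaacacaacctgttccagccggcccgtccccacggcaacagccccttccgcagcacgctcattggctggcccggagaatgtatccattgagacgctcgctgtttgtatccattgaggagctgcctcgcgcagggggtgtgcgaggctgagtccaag
SPRY2: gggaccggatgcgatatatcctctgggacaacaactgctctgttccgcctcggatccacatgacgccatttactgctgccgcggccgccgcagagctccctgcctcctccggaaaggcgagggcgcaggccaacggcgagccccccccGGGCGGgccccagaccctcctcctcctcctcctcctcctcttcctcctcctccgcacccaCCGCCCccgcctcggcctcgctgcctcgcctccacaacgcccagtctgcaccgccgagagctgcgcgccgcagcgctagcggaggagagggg
SPRY4: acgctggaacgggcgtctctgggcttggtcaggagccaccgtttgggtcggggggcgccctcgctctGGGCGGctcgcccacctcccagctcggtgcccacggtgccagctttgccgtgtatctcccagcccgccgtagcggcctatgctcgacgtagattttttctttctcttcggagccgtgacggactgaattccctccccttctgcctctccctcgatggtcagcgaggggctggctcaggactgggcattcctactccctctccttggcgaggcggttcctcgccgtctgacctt

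Both strands of these windows were searched for the AP-1 letters TGANTCA, the cAMP response element TGACGTCA, the ETS letters CCGGAAG, the E-box CACGTG that c-Myc can bind, the GC box GGGCGG and the serum response element. Of all 35116 windows, 7.71% hold the AP-1 letters, 1.85% the cAMP response element, 10.3% the ETS letters, 7.26% the E-box, 45.0% the GC box and 1.29% the serum response element. In the first listed windows of DUSP6, SPRY2, SPRY4, SPRED1, SPRED2 and PHLDA1, 0 matches were found to any of these other than the GC box, which stands in all of them but that of DUSP6. The second listed start of SPRED2, inside the gene, has 2 matches to the AP-1 letters. The GC content was 58.3% for DUSP6, 71.0% for SPRY2 and 65.0% for SPRY4, where the median of all windows was 58.7%. The GC box stood in genes that rose (SPRY2, SPRY4), in one that fell (SPRED1) and in PHLDA1 and SPRED2, which did not pass the test.

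The phosphatases fell together and by different amounts. DUSP4, a nuclear phosphatase of ERK and related kinases, lies on chromosome 8 of hg19 from 29190581 to 29208201. Its level was 91.4, 98.0 and 86.3 CPM in the control libraries and 49.5, 42.9 and 46.2 CPM in the GLCC1 siRNA libraries. The lowest control library was far above the highest GLCC1 siRNA library. DUSP4 thereby fell by 0.99 on the log2 scale (SE 0.09, adjusted p = 3.8e-06 from edgeR), and it was between -1.04 and -0.94 with any 1 library left out.

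DUSP5, also nuclear and specific for ERK, had 103.6, 137.9 and 112.5 CPM in the control libraries and 58.9, 61.6 and 76.9 CPM in the GLCC1 siRNA libraries. The groups did not overlap, but DUSP5 varied more relative to its mean than DUSP4 and DUSP6 did in either group, with means of 118 ± 17.8 and 65.8 ± 9.67 CPM (SD, n = 3). Its log2 fold change was -0.84 (SE 0.12, adjusted p = 1.6e-04 from edgeR). Without replicate 2 of the GLCC1 siRNA group the value was -0.80 and the adjusted p was 0.051, against 8.6e-05 at the lowest with another library left out. No other setting tried took DUSP5 past the threshold of 0.05. A pseudogene listed as DUSP5P1 had at most 38 counts in a library, where DUSP5 had at least 775.

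DUSP6, the cytoplasmic ERK phosphatase and a widely used marker of ERK activity, was the most abundant of the 10 genes. It had 626.6, 670.8 and 641.5 CPM in the control libraries and 433.6, 481.2 and 464.9 CPM in the GLCC1 siRNA libraries. All 3 GLCC1 siRNA libraries lay below all 3 control libraries, and DUSP6 fell by 28.9%. The log2 fold change was -0.49 (SE 0.08, adjusted p = 2.5e-04 from edgeR) and was between -0.52 and -0.45 with any 1 library left out.

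The Sprouty genes went the other way. SPRY2, whose protein acts between growth factor receptors and RAS, lies on chromosome 13 of hg19 from 80910111 to 80915261. It had 70.8, 75.3 and 75.4 CPM in the control libraries and 145.1, 147.3 and 142.1 CPM in the GLCC1 siRNA libraries. The spread within each group was small beside the gap between them, and SPRY2 nearly doubled, by 96.1%. Its log2 fold change was 0.97 (SE 0.08, adjusted p = 1.2e-06 from edgeR) and was between 0.94 and 0.99 with any 1 library left out.

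SPRY4, a close relative of SPRY2 that inhibits RAS activation, had 107.6, 121.5 and 111.8 CPM in the control libraries and 139.1, 133.3 and 141.5 CPM in the GLCC1 siRNA libraries. The groups did not overlap, and the rise was 21.4%, much smaller than that of SPRY2. The log2 fold change was 0.28 (SE 0.08, adjusted p = 0.019 from edgeR). With 1 library left out in turn the value was between 0.24 and 0.33, and the adjusted p ranged from 7.4e-06 up to 0.12 without control replicate 1, with 0.0997 without control replicate 3 and 0.051 without GLCC1 siRNA replicate 3.

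Of the SPRED genes, whose proteins bring neurofibromin to RAS to switch it off, SPRED1 had 68.2, 67.7 and 65.9 CPM in the control libraries. It had 46.8, 63.9 and 47.5 CPM in the GLCC1 siRNA libraries, so that replicate 2 stayed close to the controls while the other 2 fell clearly below. The log2 fold change of SPRED1 was -0.36 (SE 0.12, adjusted p = 0.031 from edgeR), the weakest of the 4 falls by this test. It was -0.51 without replicate 2 of the GLCC1 siRNA group (adjusted p = 2.1e-09). With any other library left out, SPRED1 did not pass, with an adjusted p between 0.087 and 0.13.

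SPRED2 had 148.9, 165.6 and 154.0 CPM in the control libraries and 151.6, 150.4 and 145.3 CPM in the GLCC1 siRNA libraries, which overlap. Its log2 fold change was -0.07 with a 95% confidence interval from -0.24 to 0.10 (adjusted p = 0.56 from edgeR). The interval leaves room for a small change of either sign.

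The ETS-family factors differed from each other. ETV4 had 62.7, 76.5 and 65.7 CPM in the control libraries and 110.9, 103.9 and 114.1 CPM in the GLCC1 siRNA libraries. The groups did not overlap, and the rise was 60.5%. The log2 fold change of ETV4 was 0.68 (SE 0.10, adjusted p = 1.1e-04 from edgeR) and was between 0.62 and 0.77 with any 1 library left out. ETV4 overlaps DHX8 on the opposite strand in GENCODE, and since the kit does not mark strand, reads of the overlap cannot be assigned to either. DHX8 was not low, with 740 to 2046 counts in a library, where ETV4 had 914 to 2128.

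ETV5, its paralogue with a closely related DNA-binding domain, had 109.8, 117.8 and 110.4 CPM in the control libraries and 114.3, 103.1 and 110.6 CPM in the GLCC1 siRNA libraries. These values overlap, with a log2 fold change of -0.04 and a 95% confidence interval from -0.22 to 0.14 (adjusted p = 0.73 from edgeR). An antisense gene of ETV5, ETV5-AS1, had at most 13 counts in a library, where ETV5 had at least 1296. DGKG, which overlaps ETV5 on the same strand, had 96 to 156 counts.

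PHLDA1, which restrains receptor signalling and is induced by ERK, had 239.2, 266.9 and 221.7 CPM in the control libraries and 226.6, 294.2 and 220.4 CPM in the GLCC1 siRNA libraries. The highest and the lowest value of all 6 both came from the GLCC1 siRNA group, the highest from replicate 2. Its log2 fold change was 0.03 with a 95% confidence interval from -0.22 to 0.27 (adjusted p = 0.88 from edgeR), and without replicate 2 of the GLCC1 siRNA group it was -0.11 (adjusted p = 0.11, the lowest with any library left out, where the highest was 0.95).

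**Figure D2:**
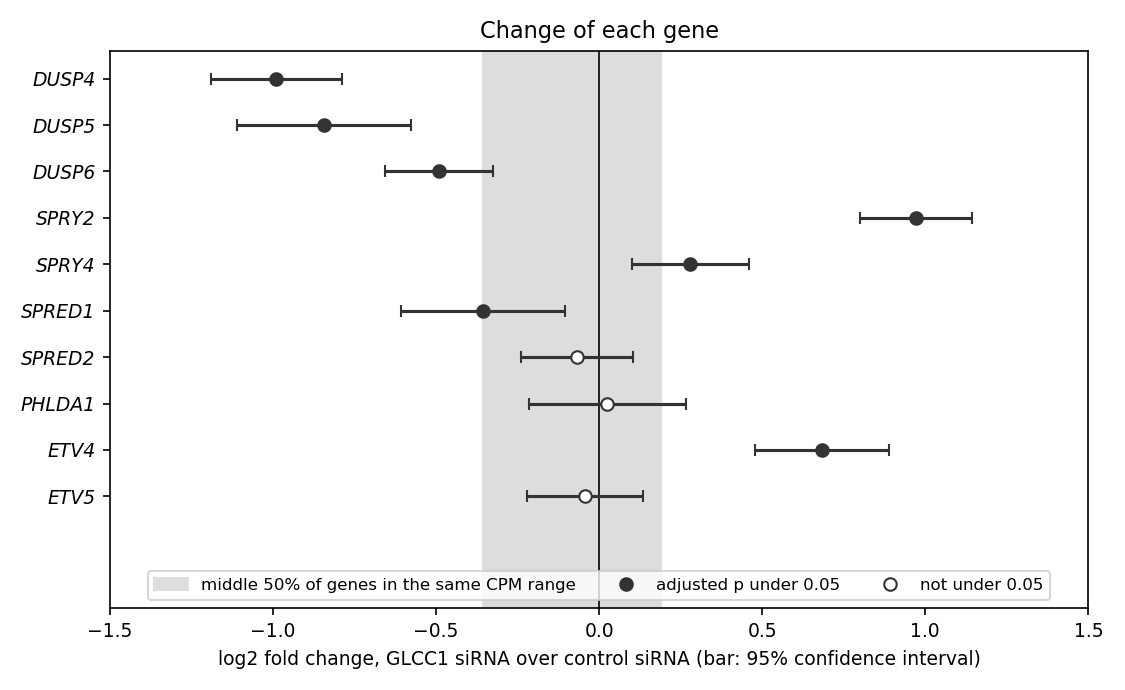
Log2 fold change of the 10 genes, GLCC1 siRNA over control siRNA (horizontal axis), with 95% confidence intervals from the edgeR fit, filled where the adjusted p was under 0.05. The grey band, from -0.36 to 0.19, holds the middle 50% of the 4094 genes of similar level, and DUSP4, DUSP5, DUSP6, SPRY2, SPRY4 and ETV4 lie outside it, with SPRED1 at its edge.

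Ratios between genes of the same library do not depend on library size or on any scaling factor, and they restate the divergence on that footing (the plot of ratios within libraries). The pairs were chosen after the values were seen, and with 3 libraries on each side a two-sided exact permutation test cannot give a p below 0.1. A p of 0.1 therefore marks only that the groups did not overlap, and the ratios are given as description. The ratio of SPRY2 to DUSP4 counts was 0.775, 0.768 and 0.874 in the control libraries and 2.93, 3.43 and 3.08 in the GLCC1 siRNA libraries, so that DUSP4 outnumbered SPRY2 in every control library and SPRY2 outnumbered DUSP4 in every GLCC1 siRNA library. The log2 ratio differed by 1.96 (exact permutation p = 0.1). The ratio of SPRY2 to DUSP6 was 0.112 to 0.118 with control siRNA and 0.306 to 0.335 with GLCC1 siRNA, a difference of 1.46 on the log2 scale (exact permutation p = 0.1).

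Within families some ratios also lay apart between the groups, again for pairs chosen after the values were seen. ETV4 to ETV5 was 0.571, 0.650 and 0.595 in the control libraries and 0.971, 1.01 and 1.03 in the GLCC1 siRNA libraries, without overlap and with a difference of 0.73 on the log2 scale (exact permutation p = 0.1). SPRY2 to SPRY4 was 0.620 to 0.675 with control siRNA and 1.00 to 1.10 with GLCC1 siRNA, a difference of 0.69 (exact permutation p = 0.1). DUSP4 to DUSP6 was 0.135 to 0.146 with control siRNA and 0.0893 to 0.114 with GLCC1 siRNA, a difference of -0.50 (exact permutation p = 0.1). SPRED1 to SPRED2 overlapped between the groups, with 0.425 in replicate 2 of the GLCC1 siRNA group beside 0.309 and 0.327 in the other 2 (exact permutation p = 0.2), so a difference between the SPRED genes was not shown. For the other pairs these tests show no more than the lack of overlap.

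**Figure D3:**
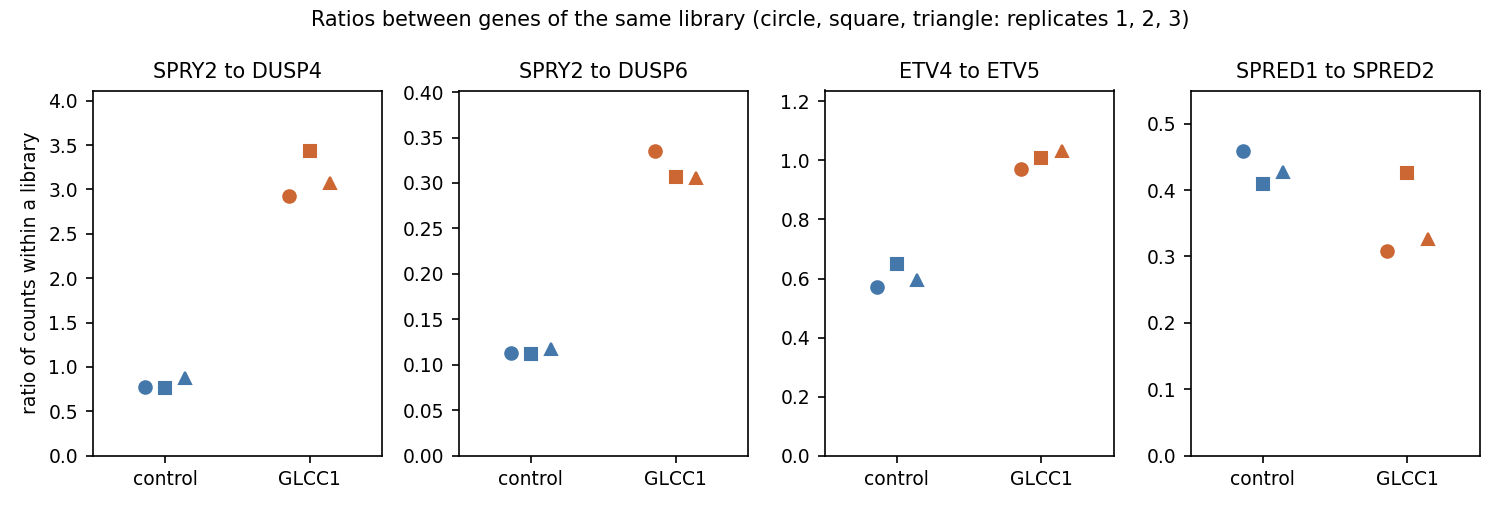
Ratio of the counts of 2 genes within each library (vertical axes from 0), for 3 control siRNA libraries (blue) and 3 GLCC1 siRNA libraries (orange). The ratios of SPRY2 to DUSP4, SPRY2 to DUSP6 and ETV4 to ETV5 were higher in every GLCC1 siRNA library than in any control library, whereas SPRED1 to SPRED2 overlapped.

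For a comparison of levels between genes, CPM was divided by the exon length of each gene in kilobases (GENCODE 44 mapped to hg19). On this per-length scale DUSP6 stood first in the control libraries with 167 ± 5.83 (SD, n = 3), followed by DUSP5 with 46.5 ± 7.02 and PHLDA1 with 41.0 ± 3.85. The SD ranges of DUSP5 and PHLDA1 meet, although DUSP5 was the higher in every control library. SPRED2 with 28.4 ± 1.56 and SPRY2 with 23.0 ± 0.810 came next. ETV5 with 19.5 ± 0.763 and ETV4 with 19.4 ± 2.07 did not differ beyond their spread. The SD ranges of ETV4 and SPRY4, with 17.3 ± 1.09, also meet, although ETV4 was the higher in every control library. DUSP4 with 12.6 ± 0.809 and SPRED1 with 8.68 ± 0.158 were lowest. In the GLCC1 siRNA libraries DUSP6 was still first with 119 ± 6.27, SPRY2 had moved up to 45.1 ± 0.816, beside PHLDA1 with 41.8 ± 6.92, and DUSP4 with 6.36 ± 0.452 did not differ beyond its spread from SPRED1 with 6.80 ± 1.25.

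Other genes of the pathway were read from lists written by hand, and no list as a whole was tested (the plot of pathway genes by list). The counts in every list stand beside the shares among all genes tested, of which 14.9% rose and 16.7% fell. Among 7 other MAP kinase phosphatases, 2 rose and 2 fell. DUSP7, a cytoplasmic ERK phosphatase close to DUSP6, had 42.3 ± 0.874 CPM in the control libraries and 21.8 ± 1.97 CPM in the GLCC1 siRNA libraries (log2 fold change -0.95, adjusted p = 9.2e-06 from edgeR). DUSP8, which acts on stress-activated kinases and lies under 5 CPM on average, was the other that fell. DUSP16, which acts on the stress-activated kinase JNK, rose from 93.4 ± 2.71 to 169 ± 7.40 CPM, with a log2 fold change of 0.86 (adjusted p = 3.6e-06). DUSP2 rose from 5.74 ± 0.794 to 9.42 ± 1.31 CPM, with a log2 fold change of 0.72 (adjusted p = 0.0029).

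Among 6 close paralogues of the 10 genes, 2 rose, SPRY1 and SPRY3, and 2 fell, PHLDA2 and PHLDA3, but of these 4 calls SPRY1 alone held in all 12 other settings. SPRY1 had 14.5 ± 1.41 CPM in the control libraries and 26.1 ± 2.46 CPM in the GLCC1 siRNA libraries (log2 fold change 0.85, adjusted p = 9.2e-05 from edgeR). SPRY3 went from 6.29 ± 0.299 to 8.28 ± 0.786 CPM (log2 fold change 0.39, adjusted p = 0.045 from edgeR) and passed in 5 of those settings, with an adjusted p between 0.011 and 0.15. Among others, it did not pass with DESeq2, with a filter of 1 count, without GLCC1 siRNA replicate 1 or without any 1 control library. PHLDA2 and PHLDA3, relatives of PHLDA1, had log2 fold changes of -0.47 and -0.42 (adjusted p = 0.027 and 0.041 from edgeR). PHLDA2 passed in 8 of the 12 settings and PHLDA3 in 6, and neither passed without any 1 control library, where 0 paralogues fell. PHLDA3 also did not pass without GLCC1 siRNA replicate 1. SPRED3 did not pass the test, and ETV1 had no count in any control library.

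Of 25 other genes induced by ERK, 4 rose, 10 fell and 11 did not pass, where 14.9% of all genes tested rose and 16.7% fell. The median log2 fold change of the 25 was -0.23, against 0.03 for all genes tested. Among the 4094 genes in the level range of the 10 genes, 31.6% fell and the median was -0.07. Without GLCC1 siRNA replicate 1 or control replicate 3, 2 of the 25 rose. EGR1, the immediate-early factor most often read as an ERK response, had 252 ± 36.1 CPM in the control libraries and 281 ± 21.4 CPM in the GLCC1 siRNA libraries, with a log2 fold change of 0.16 (adjusted p = 0.27 from edgeR), and it passed in 1 of the 12 other settings, scaling by library totals (adjusted p = 0.045, where the highest was 0.67). FOSL1, an AP-1 subunit held up by sustained ERK activity, had a log2 fold change of 0.13 (adjusted p = 0.44), and CCND1, the cyclin that drives entry into S phase, one of -0.07 (adjusted p = 0.53). EPHA2, an ephrin receptor induced by ERK, fell from 329 ± 33.9 to 157 ± 23.6 CPM, with a log2 fold change of -1.07 (adjusted p = 1.0e-05). JUNB and ZFP36, both induced within minutes of stimulation, fell with log2 fold changes of -0.86 and -0.75 (adjusted p = 0.0021 and 8.0e-04). JUNB did not pass without GLCC1 siRNA replicate 2 (adjusted p = 0.070, the highest over the 12 other settings, where the lowest was 3.8e-13). EPHA4, a related receptor under 5 CPM on average, also fell. KLF10, also induced early, rose with a log2 fold change of 0.73 (adjusted p = 1.6e-05).

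The 19 genes of the cascade itself were split, with 4 rising, 5 falling and 10 not passing, and a median log2 fold change of -0.07. Without control replicate 1 or control replicate 3, 2 rose. NRAS fell from 149.5 ± 2.64 to 91.3 ± 10.3 CPM, with a log2 fold change of -0.71 (adjusted p = 5.8e-05). For the kinases BRAF and MAPK3 (ERK1), the log2 fold changes were -0.07 and -0.02, and neither passed (adjusted p = 0.65 and 0.94 from edgeR). MAP2K2, which encodes MEK2, and SRF, the serum response factor, fell with log2 fold changes of -0.49 and -0.54 (adjusted p = 0.0082 and 0.0078). MKNK2, a kinase that ERK activates, rose with a log2 fold change of 0.47 (adjusted p = 0.0068).

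Among 18 adaptors, exchange factors and brakes upstream, 6 rose, 6 fell and 6 did not pass, with a median log2 fold change of 0.11. IL17RD, known as SEF, a membrane protein that restrains ERK signalling and belongs to the same feedback group as the Sprouty genes, had 31.5, 30.5 and 30.2 CPM in the control libraries. In the GLCC1 siRNA libraries it had 8.71, 9.39 and 7.05 CPM. With a log2 fold change of -1.88 (SE 0.12, adjusted p = 1.7e-07 from edgeR), it fell further than any of the 10 genes. RASA1, a GTPase-activating protein that switches RAS off, rose with a log2 fold change of 0.57 (adjusted p = 6.5e-04), and GAB1, a docking protein, rose with one of 0.44 (adjusted p = 0.0049). KSR1, a scaffold for RAF, MEK and ERK, had a log2 fold change of -0.41 (adjusted p = 0.039 from edgeR) and passed in 7 of the 12 other settings, failing among others without control replicate 2, control replicate 3 or GLCC1 siRNA replicate 3 (adjusted p between 0.0071 and 0.18 over all 12). Without control replicate 1, 2 or 3 the list had 3 rising genes, and 3, 1 and 2 falling genes in that order, and without GLCC1 siRNA replicate 1 it had 6 rising and 3 falling. The named genes IL17RD, RASA1 and GAB1 passed in all 12.

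The directions of the 7 genes that passed were the same in all 12 other settings of test, scaling, filter, block and libraries (the plot of changes under other settings). When counts were scaled by library totals alone, the median of all genes moved from 0.03 to 0.15, and 62.9% of the calls were rises in place of 47.0%. This scaling shifts all genes by about the same amount, so the log2 fold changes moved together, to -0.87 for DUSP4, -0.37 for DUSP6, 1.09 for SPRY2 and 0.80 for ETV4. In that setting SPRED1 no longer passed, and SPRED2 and ETV5 turned to slightly positive values that did not pass. Of the lists, the upstream adaptors and brakes then had 8 rising and 1 falling gene in place of 6 and 6, and the paralogues 2 rising and 0 falling.

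**Figure D4:**
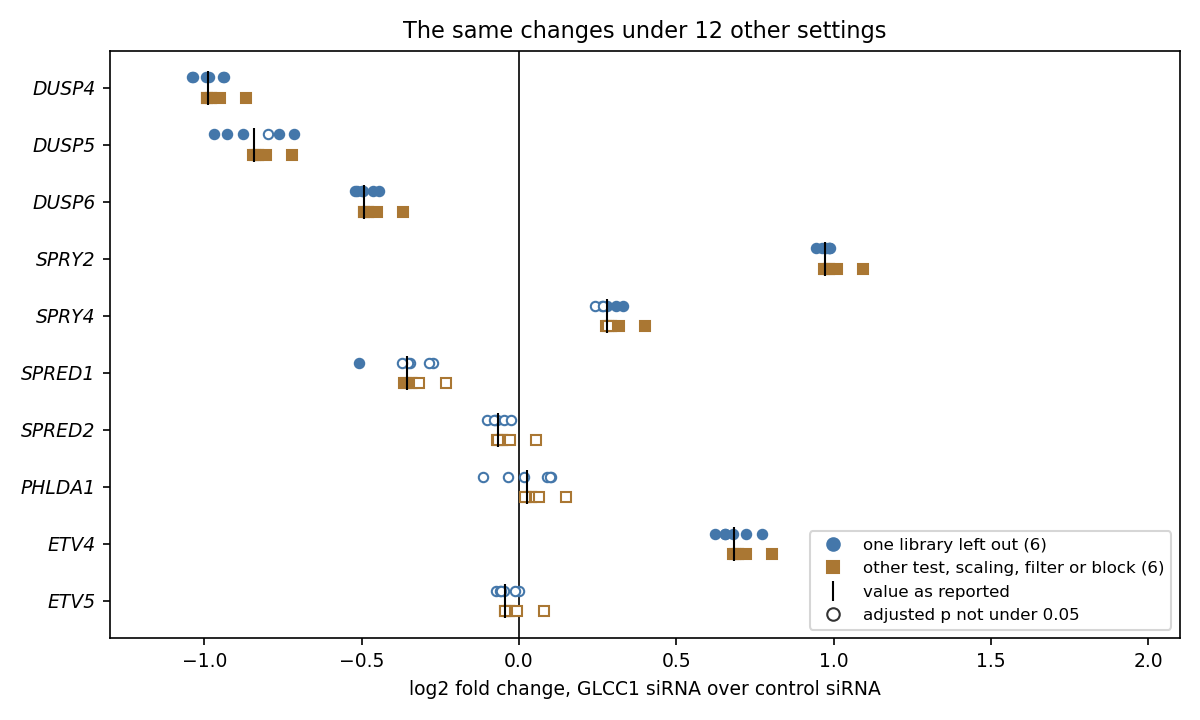
Log2 fold change of the 10 genes (horizontal axis) as reported (black bar), with each of 6 libraries left out (blue circles) and under 6 other choices of test, scaling, filter or block (brown squares), open where the adjusted p was not under 0.05. DUSP4, DUSP6, SPRY2 and ETV4 stayed filled throughout, whereas DUSP5 was open in 1 setting, without GLCC1 siRNA replicate 2, and SPRY4 and SPRED1 in several.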

How the data were processed

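RNA sequencing libraries from 3 control siRNA and 3 GLCC1 siRNA samples were analysed. The deposited files hold read counts per gene symbol, 1 file a library. Per the study's methods and the labels, the authors prepared libraries with a TruSeq RNA kit, which does not mark strand, mapped paired reads to hg19 with TopHat2 2.0.11 and counted them on Ensembl genes with HTSeq in union mode. Reads shared between overlapping genes were therefore not counted, and reads on no gene (11.2% to 14.2%) were left out of library sizes.

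A gene was kept where the libraries of at least 1 condition summed to 5 counts or more, the filter of the study. The remaining counts were scaled by TMM (factors 0.950 to 1.05) and tested with the robust quasi-likelihood test of edgeR 4.0.16 in R 4.3.3, GLCC1 siRNA against control siRNA, with Benjamini-Hochberg adjustment over all 23074 genes and a threshold of 0.05. The study used DESeq2, which was run as an alternative (1.42.0), beside other scalings, filters, a replicate block, exchanged groups and each library left out. The fits were tested on simulated counts. Of 100 genes changed 2-fold edgeR recovered 100, and of 100 changed by a smaller amount it recovered 65. DESeq2 recovered 96 and 56, so small changes can be missed. Calls on unchanged genes were 15 of 180 with edgeR and 9 of 161 with DESeq2, so a call can also be false. The simulation changed 200 genes, whereas 3429 rose and 3864 fell in the data, so its share of false calls need not hold for them. Ratios within libraries were compared by two-sided exact permutation tests.

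Named genes were all 10 genes and, from each list, the 4 with the largest change among those that passed with a mean of at least 5 CPM, plus BRAF, MAPK3, EGR1, FOSL1 and CCND1. Some genes that the rule also covers are not reported here. DUSP8, EPHA4, SPRED3, ETV1 and the ratio pairs were added after their values were seen. The 10 genes and the lists were chosen with earlier results of these data known. Positions come from GENCODE 44 mapped to hg19. DUSP4 has no sequence shown here.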

Additional observations from a re-analysis of the deposited data

How the results depend on the processing

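DUSP4, DUSP6, SPRY2 and ETV4 kept their direction and passed under all 12 settings other than exchanged groups. Exchanging the groups as in the library names turned every log2 fold change: DUSP4 0.99, DUSP5 0.84, DUSP6 0.49, SPRED1 0.36, SPRED2 0.067, ETV5 0.043, PHLDA1 -0.025, SPRY4 -0.28, ETV4 -0.68 and SPRY2 -0.97. With library totals only, ETV5 was 0.079 and SPRED2 0.055, neither passing. Leaving out 1 library at a time gave -0.071 to 0.00089 for ETV5 and -0.11 to 0.10 for PHLDA1. The number of the 10 genes changed 2-fold was 1 in place of 0 with a filter of 10 counts in every library and with library totals only, and 0 to 1 with 1 library left out. SPRED1 did not pass with the filter of 10 counts (adjusted p = 0.056 from edgeR) or with library totals (adjusted p = 0.15). Of all genes, 4844 rose and 5076 fell without GLCC1 siRNA replicate 2, and between 2381 and 3040 rose and 2833 and 3574 fell without any other library. The causes of these shifts were not tested.

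Same-numbered libraries did not deviate together (r between -0.25 and -0.00 over 14875 genes), so the numbers are not taken as pairs. With a replicate block 3009 genes rose and 3513 fell, 2 of the 10 genes rose and 4 fell, and SPRY4 had a log2 fold change of 0.28 (adjusted p = 0.060 from edgeR), and SPRY3 did not pass either. Of 130 counts of rising or falling list genes over the settings, exchanged groups included, 28 moved by more than 1.5 times or to 0. With exchanged groups, where rising and falling swap by construction, 2 of these moved. The counts behind the 10 genes were at least 540 in every library, and 3 libraries a group limit the precision of the spread.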
